A study of Mus musculus with 12 samples.

Results

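The nuclear factor I family of the mouse was followed in cells sorted as astrocytes from the developing cerebellum. It holds 4 genes, Nfia, Nfib, Nfic and Nfix, taken by symbol from a deposited table of 24421 entries. All 4 had a row and all 4 passed the filter on low values, as 4 of the 15464 genes tested. The libraries were made from RNA of GFP+ cells, sorted by flow cytometry from dissociated cerebellum of Aldh1l1-GFP reporter mice, at 4 ages, postnatal day 1 (P1), 7 (P7), 14 (P14) and 28 (P28). Each age had 3 libraries. Every group carried the same reporter on a C57/BL6J background, both sexes were used, and age was the only labelled difference between groups. The reporter is driven by the promoter of Aldh1l1, a folate enzyme used as a pan-astrocyte marker, so each library holds whichever cells had GFP at that age. The sources used here do not say whether the 3 libraries of a time point came from separate animals, and p-values then measure only the spread between these samples. A library held between 11478899 and 14733985 reads on genes at P1. At P7 the range was 6399499 to 11328604, at P14 9470510 to 9856910, and at P28 7965152 to 10269334. Each Nfi gene had between 857 and 34986 reads in a library, which gives a counting error of at most 6.75% of its value, so depth did not limit these genes.

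NFI proteins are transcription factors that bind DNA as dimers, alone or in combination with one another, at the palindrome formed by TTGGC and its reverse complement GCCAA, and more weakly at a single TTGGC. In the developing nervous system they are known for the switch of radial glia and other progenitors from making neurons to making astrocytes, during which NFIA is induced downstream of SOX9. In the cerebellum they are also known from granule neurons and their precursors, where they control late maturation genes, and in mature astrocytes they take part in keeping region-specific gene programs. A level measured in a sorted population therefore does not by itself name the cell that made it.

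The 4 genes are related in sequence, which matters for whether reads can be assigned to one of them. Pairwise identity of the longest annotated coding sequences (GENCODE M21) ran from 63.9% between Nfib and Nfic to 70.7% between Nfia and Nfix. Their most alike ungapped stretch of 90 coding bases is shown for each gene, from the transcripts of GENCODE M21, because it is the place where a read could most easily be misassigned. Capitals mark the positions at which the 4 genes are not all the same.
Nfia: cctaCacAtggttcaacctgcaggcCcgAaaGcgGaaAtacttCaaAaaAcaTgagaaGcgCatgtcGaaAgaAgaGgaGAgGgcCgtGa
Nfib: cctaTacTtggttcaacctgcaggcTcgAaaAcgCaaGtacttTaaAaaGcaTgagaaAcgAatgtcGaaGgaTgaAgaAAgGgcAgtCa
Nfic: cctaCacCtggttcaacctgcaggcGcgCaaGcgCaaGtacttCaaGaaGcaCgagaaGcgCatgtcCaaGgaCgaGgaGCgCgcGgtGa
Nfix: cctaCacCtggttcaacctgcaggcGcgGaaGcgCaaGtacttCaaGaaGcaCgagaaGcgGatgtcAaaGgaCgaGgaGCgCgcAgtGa

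Even in this stretch 22 of the 90 positions differed among the genes. Over all annotated transcripts, the longest run of bases shared by any pair was 32 bases, between Nfic and Nfix, and no pair shared a run of 50 or of 75 bases in either orientation, 75 being the shorter of the read lengths given in the study's methods. Overlap with other genes was also small. On GRCm38, Nfia lies on chromosome 4 from 97772734 to 98118874 on the plus strand. Nfib lies on chromosome 4 from 82290173 to 82705750, Nfic on chromosome 10 from 81396186 to 81455635 and Nfix on chromosome 8 from 84699876 to 84800344, all on the minus strand. Exons of E130114P18Rik shared 4 bases with those of Nfia on the opposite strand, and its normalized count was between 144 and 529. Lyl1, a blood-lineage transcription factor gene, shared 4 bases with Nfix and reached at most 51.0. G430095P16Rik shared 137 bases with Nfix and Gm16104 shared 72 with Nfic, and neither was analysed here. The genes that overlap Nfib shared 0 exon bases with it. Whether strand was used in counting is not given in the sources used here.

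The level of each gene was examined first. Values are normalized counts, that is, the authors' counts after division by a size factor for each library. Nfia had 8262, 8184 and 8455 normalized counts at P1, 13536, 11038 and 13701 at P7, then 5058, 5320 and 5397 at P14, and 9249, 9725 and 11519 at P28. The libraries of consecutive time points did not overlap, and Nfia was highest at P7 and lowest at P14. Nfib had 10227, 6935 and 11986 at P1, 26466, 22490 and 27119 at P7, 5027, 5145 and 5333 at P14, and 5540, 5430 and 5600 at P28. All 3 P7 libraries of Nfib stood far above every other library, and P14 and P28 lay next to each other with a narrow gap. Nfix had 7676, 5795 and 8085 at P1, 19589, 11033 and 17718 at P7, then 5137, 4815 and 6016 at P14, and 6662, 8975 and 9217 at P28. It followed the order of Nfia, with a wider spread at P7 and with P28 libraries that overlapped those of P1. Nfic was the exception, with 903, 930 and 649 at P1, 1285, 1345 and 1014 at P7, 2257, 2350 and 1911 at P14, and 2550, 3452 and 3139 at P28. Each later time point of Nfic lay above the one before with no overlap.

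**Figure D1:**
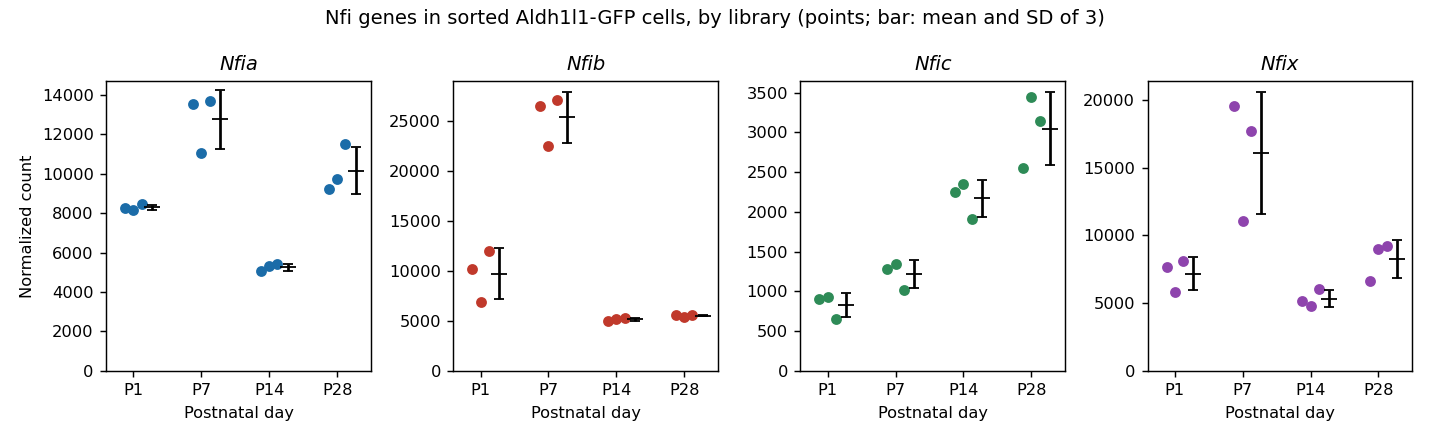
Normalized counts of Nfia, Nfib, Nfic and Nfix in each of the 12 libraries (points, in the order of replicates 1, 2 and 3) by postnatal day, with the mean and SD of 3 libraries as a bar beside them; each panel has its own linear axis from 0. Nfia and Nfix were highest at P7 and lowest at P14. Nfib was highest at P7, with P14 and P28 close together, whereas the mean of Nfic went from 827 at P1 to 3047 at P28.

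Means were compared with limma on log2(normalized count + 1), a scale on which the offset of 1 is negligible for these genes, and p-values were adjusted by Benjamini-Hochberg over all genes tested. From P1 to P7, 3 of the 4 genes rose and 0 fell, while 3.47% of all genes tested rose, 4.24% fell and so 7.70% changed. Nfib rose most, from 9716 ± 2564 (SD, n = 3) to 25358 ± 2505, a 2.67-fold difference (log2 fold change 1.42 ± 0.17 SE, limma adjusted p = 2.13e-04). Nfix rose 2.20-fold, from 7185 ± 1221 to 16113 ± 4498 (log2 fold change 1.14, limma adjusted p = 0.00422). Nfia rose 1.53-fold, from 8300 ± 139 to 12758 ± 1492 (log2 fold change 0.61, limma adjusted p = 0.0111), and this call was lost without replicate 1 of P7 (limma adjusted p = 0.0566) or without replicate 3 (0.0702). Nfic, at 827 ± 155 and 1215 ± 177, did not pass (log2 fold change 0.56, limma adjusted p = 0.0987), although its libraries did not overlap, which held for all 4 Nfi genes and for 38.3% of all genes in this step.

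From P7 to P14 all 4 genes passed, 3 downward and 1 upward, where 10.0% of all genes tested fell and 10.8% rose (20.9% together). Nfib fell 4.89-fold to 5169 ± 154 (log2 fold change -2.29 ± 0.17 SE, limma adjusted p = 9.16e-07), and 8.04% of all genes had a larger change in this step. Nfix fell 2.95-fold to 5323 ± 622 (log2 fold change -1.56, limma adjusted p = 1.25e-04) and Nfia 2.42-fold to 5258 ± 178 (log2 fold change -1.27, limma adjusted p = 1.36e-05). In the same libraries Nfic rose 1.79-fold to 2173 ± 231 (log2 fold change 0.84 ± 0.19 SE, limma adjusted p = 0.00562). Groups of all 4 genes were again without overlap, against 46.1% of all genes.

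From P14 to P28 Nfia alone passed, where 5.68% of all genes tested rose, 8.76% fell and so 14.4% changed. It rose 1.92-fold to 10164 ± 1197 (log2 fold change 0.94 ± 0.13 SE, limma adjusted p = 7.62e-04). Nfix, at 8285 ± 1410 by P28, had a log2 fold change of 0.63 (limma adjusted p = 0.0632), which passed without replicate 2 of P7 (limma adjusted p = 0.0265) or replicate 1 of P28 (0.0352). Nfic, at 3047 ± 458, had a log2 fold change of 0.48 (limma adjusted p = 0.106). Nfib, at 5523 ± 86.1, had a log2 fold change of 0.10 ± 0.17 SE (limma adjusted p = 0.753), which was -0.14 with scaling by library totals alone. Libraries of P14 and P28 did not overlap for any of the 4 genes, as for 26.1% of all genes. For Nfib this gap was narrow, from 5333 at P14 to 5430 at P28, with counting errors of 2.81 and 2.90% of these values.

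Across the whole interval from P1 to P28, 1 gene rose and 1 fell, where 14.6% of all genes tested rose and 20.0% fell (34.6% together). Libraries of P1 and P28 did not overlap for 3 of the 4 genes, all but Nfix, as for 41.9% of all genes. Nfic rose 3.70-fold (log2 fold change 1.89 ± 0.19 SE, limma adjusted p = 4.79e-06) and Nfib fell 1.72-fold (log2 fold change -0.78 ± 0.17 SE, limma adjusted p = 0.00322). Nfia and Nfix had log2 fold changes of 0.29 (limma adjusted p = 0.114) and 0.21 (0.483), neither of which passed, and both values were below 0 with scaling by library totals alone. A test of any change over the 4 time points passed for all 4 genes, with the highest limma adjusted p at 2.78e-04 for Nfix, as it did for 43.8% of all genes tested. In libraries of sorted cells, a lower share of cells that express a gene and less RNA of that gene per cell cannot be told apart.

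**Figure D2:**
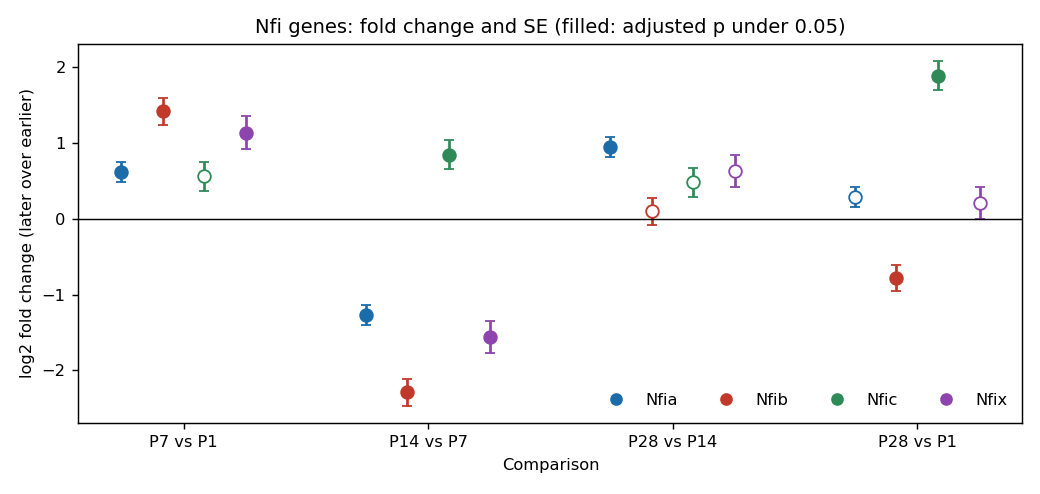
log2 fold changes of the 4 Nfi genes (later over earlier time point, vertical axis) in 4 comparisons of time points, with bars of 1 SE from limma; filled points have an adjusted p under 0.05 and open points do not. Nfia, Nfib and Nfix lie above 0 from P1 to P7 and below 0 from P7 to P14, where Nfic lies above 0 at 0.84.

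Unequal change within the family was tested with ratios inside each library, since such a ratio does not depend on how libraries are scaled. All 6 pairs changed over time (exact permutation test of the between to within variance over 369600 arrangements of the 12 libraries, Benjamini-Hochberg over the 6 pairs), with adjusted p from 7.79e-04 to 0.0353. The ratio of Nfia to Nfib had a mean of 0.898 ± 0.250 (SD, n = 3) at P1 and 0.502 ± 0.0106 at P7. It was 1.02 ± 0.0147 by P14 and 1.84 ± 0.198 by P28 (exact permutation adjusted p = 7.79e-04). The P7, P14 and P28 libraries of this ratio did not overlap, while the P1 libraries, from 0.705 to 1.18, spanned P14. The ratio of Nfib to Nfic had the widest range of means, with 12.4 ± 5.59 at P1 and 21.4 ± 5.06 at P7, then 2.40 ± 0.336 at P14 and 1.84 ± 0.304 at P28 (exact permutation adjusted p = 0.00143). Its 6 libraries at P1 and P7 all lay above its 6 libraries at P14 and P28. The ratio of Nfia to Nfix had the highest adjusted p of the 6 pairs, with means of 1.18, 0.822, 0.995 and 1.24 at P1, P7, P14 and P28 and adjusted p = 0.0353 in the exact permutation test. That call was lost when any of 5 libraries was left out, replicates 1 and 3 of P7, 1 of P14, and 1 and 3 of P28, with p up to 0.110.

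**Figure D3:**
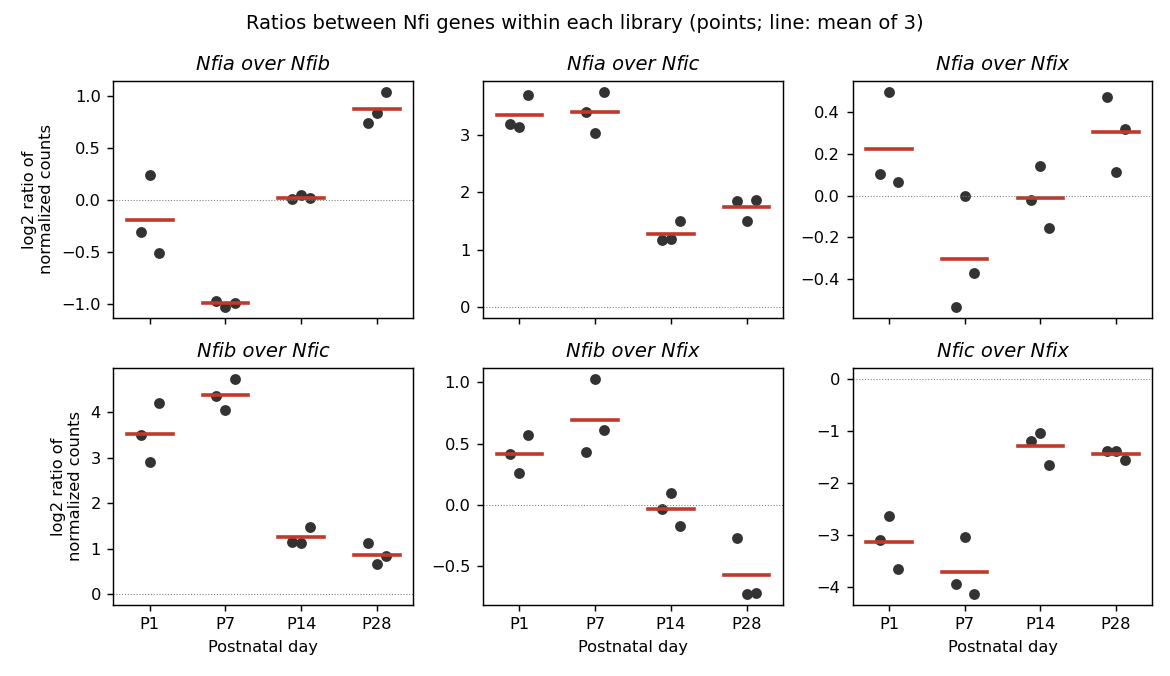
log2 ratio of normalized counts between Nfi genes within each library (points) at each postnatal day for all 6 pairs, with the mean of 3 libraries as a line; axes differ between panels. Ratios with Nfic fell or rose between P7 and P14 with no overlap of libraries, whereas libraries of the ratio of Nfia to Nfix overlapped between P14 and either neighbour.

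Levels were compared between the genes only after division by length, here the union of annotated exons (10891 bases for Nfia, 14957 for Nfib, 6630 for Nfic and 7351 for Nfix), and are given per kilobase (kb). The summed level of the family was 2514 ± 330 (SD, n = 3) normalized counts per kb at P1, 5242 ± 892 at P7, then 1880 ± 68.1 at P14 and 2889 ± 338 at P28. Nfix held 38.7% of this sum at P1, 41.2% at P7, 38.4% by P14 and 38.8% at P28, so its share moved little while the total varied. The share of Nfib was 25.5 ± 3.65% at P1, 32.6 ± 2.77% at P7, then 18.4 ± 0.257% at P14 and 12.9 ± 1.61% at P28. Nfic went from 5.09 ± 1.51% at P1 and 3.61 ± 1.08% at P7 to 17.5 ± 2.43% at P14 and 15.9 ± 1.29% at P28, and Nfia had 30.6, 22.5, 25.7 and 32.4% in the same order. By this length Nfix ranked first in 11 of the 12 libraries. Nfia and Nfib changed places among the P1 libraries, as Nfib and Nfix did at P7 and Nfib and Nfic at P14, and these neighbours did not differ beyond their spread. The shares and the order also depended on the length used. With the longest coding sequence Nfib led at P7 and Nfia at P28 in every library, and Nfic was last in every library.

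Set among all genes with a known length, the family was abundant. At P7, 0.444% of genes had a higher mean per kb than Nfix, 0.633% than Nfib and 0.976% than Nfia, and at P28 these shares were 1.80, 7.09 and 2.28%. For Nfic the share went from 21.3% at P1 to 5.36% at P28. The spread between libraries of one time point differed among the 4 genes. The residual SD of Nfia on the log2 scale was 0.12, smaller than that of all but 0.795% of the genes tested, and those of Nfib, Nfic and Nfix were 0.22, 0.23 and 0.30, with 8.61, 9.79 and 20.2% of genes below them. Within a time point the SD reached 27.9% of the mean for Nfix at P7 and 26.4% for Nfib at P1.

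The labelled cell type was then set beside its markers. Aldh1l1 itself had 6441, 4741 and 3841 normalized counts at P1 and 1985, 936 and 1488 at P7, with no overlap, and fell 3.49-fold (log2 fold change -1.80, limma adjusted p = 4.66e-04). In the same step the summed level of 10 astrocyte markers went from between 55929 and 72377 per library to between 27608 and 51333. By P14 that sum was between 146551 and 184185 and by P28 between 348122 and 406846, with 0 of the 10 markers at 0 in any library and Slc1a3, the glial glutamate transporter, the highest of them over all libraries. At P7 alone Aqp4, the water channel of astrocytes, was higher, at 14593 ± 4575 (SD, n = 3) beside 10471 ± 3157 for Slc1a3. Of the 10 markers, 6 fell and 2 rose from P1 to P7, 8 rose in the next step and 8 from P14 to P28. Of all genes tested, 4.24% fell and 3.47% rose from P1 to P7, 10.8% rose in the next step and 5.68% from P14 to P28. Thus Nfia, Nfib and Nfix were highest at P7, where the summed astrocyte markers were lowest. Their lowest means were at P14, whereas that sum was highest at P28. The mean of Nfic was higher at each later time point.

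Markers of other cells moved in the same steps. Their counts stand beside 3.47% of all genes tested that rose and 4.24% that fell from P1 to P7, 10.8% and 10.0% from P7 to P14, and 5.68% and 8.76% from P14 to P28. The summed level of 8 granule neuron precursor markers was between 5575 and 6339 at P1, between 10587 and 12740 at P7, between 3374 and 3608 by P14 and between 2809 and 3602 at P28. Its most abundant gene over all libraries, the cyclin gene Ccnd2, had 2572 ± 701 (SD, n = 3), 5528 ± 876, 349 ± 177 and 321 ± 152 in these groups, and Atoh1, which defines the precursors, was at 36.4 ± 7.64 at P7 and at 0 in all libraries of P14 and P28. Barhl2 had the highest mean of the list at P14 and P28, 1046 ± 308 and 1106 ± 388. Of these 8 markers 1 rose from P1 to P7, Barhl2, which was at 351 ± 103 at P7, and 4 others fell from P7 to P14. Ccnd2, Mfap4 and Atoh1 did not pass from P1 to P7 (limma adjusted p = 0.101, 0.271 and 0.173). All 8 cell division genes fell from P7 to P14, after 1 of them, Top2a, had risen from P1 to P7, and their sum, led by Mki67, went from between 19982 and 26700 at P7 to between 626 and 1215 at P14. The sum of 6 GABAergic interneuron markers was between 322 and 1514 at P1, between 2464 and 5351 at P7 and between 451 and 534 at P14. Of the 6, Gad1 and Gad2, which make GABA, rose from P1 to P7, and 5 fell and Pvalb rose from P7 to P14. Pax2, a factor of interneuron precursors, had the highest mean of the list at P1 and P7, and Gad1 at P14. Oligodendrocyte lineage markers peaked later, with sums of 12 genes between 8239 and 12653 at P1, between 25050 and 36956 at P7, between 313324 and 373254 at P14 and between 102730 and 143076 at P28, led by the myelin gene Mbp over all libraries. At P1 Pdgfra had the highest mean, 3646 ± 978 beside 647 ± 285 for Mbp. Of these 12, 7 rose and 2 fell from P1 to P7, 8 rose and 1 fell from P7 to P14, and 9 fell from P14 to P28. Granule neuron markers, 12 genes led by Cbln3 over all libraries, had sums between 2994 and 3932 at P1, between 6846 and 8440 at P7, with no overlap, and between 15219 and 28760 at P14, where they were highest. Cbln3 had the highest mean at P14 and P28 only. At P1 this was Kcnd2, with 1387 ± 148 beside 17.2 ± 3.15 for Cbln3. At P7 it was Neurod2, with 2209 ± 576 beside 41.2 ± 9.34. Of these 12, 7 rose and 2 fell from P1 to P7 and 9 rose from P7 to P14. Neurod1, a factor of differentiating granule neurons, went from 70.7 ± 51.0 (SD, n = 3) at P1 to 1929 ± 557 at P7 (log2 fold change 4.98). Of 7 Bergmann glia markers 2 rose and 1 fell from P1 to P7 and 6 rose from P7 to P14, and of 6 Purkinje cell markers 1 rose and 1 fell and then 2 rose and 1 fell. Of 8 microglia markers 1 rose in each of these steps. With 7.70% of all genes called from P1 to P7 and 20.9% from P7 to P14, nothing is read from 1 or 2 calls in a list of this size.

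Markers of choroid plexus and vessels were set beside these. Ttr, the transthyretin gene of the choroid plexus, had 685, 289 and 221 normalized counts at P1 and 60055, 125927 and 47082 at P7, with no overlap (log2 fold change 7.65, limma adjusted p = 0.00289). It held most of the sum of 6 choroid plexus and ependymal markers at P7. Foxj1, a factor of ciliated cells, fell from 778 ± 362 (SD, n = 3) to 183 ± 26.1 (limma adjusted p = 0.0478). Folr1 went from 31.8 ± 24.8 to 238 ± 102 and Kl from 75.8 ± 85.4 to 342 ± 148, each without overlap of libraries. Neither passed (limma adjusted p = 0.161 and 0.169). In this list 1 rose and 1 fell, with 4 at an unadjusted p under 0.05, where 3.47% of all genes tested rose and 4.24% fell. Of 6 endothelial markers 0 passed limma from P1 to P7, with 5 at an unadjusted p under 0.05, 0 by edgeR and 1 by DESeq2, and their sums overlapped (762 to 3534 at P1 and 1632 to 9909 at P7). Of these 6 markers and of the 6 choroid plexus and ependymal markers 0 passed limma from P7 to P14, with 0 at an unadjusted p under 0.05 and 0 by edgeR or DESeq2 in either list. The part of these cells in the levels of the Nfi genes was not tested.

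A library of each time point stood apart in a marker list. Replicate 2 of P1 had a sum of 6 endothelial markers of 3534, against 762 and 1067, a sum of cell division genes of 8136, against 15127 and 15182, and the lowest values of Nfib (6935) and Nfix (5795) at P1. Without it, the log2 fold changes from P1 to P7 were 0.60 for Nfia, 1.19 for Nfib, 0.66 for Nfic and 0.99 for Nfix, with the same calls, and 694 genes were called in place of 1191. Replicate 3 of P1 had a GABAergic interneuron marker sum of 1514, against 517 and 322. Its microglia marker sum was 530, against 1232 and 1432. It also had the highest Nfib (11986) and the lowest Nfic (649) at P1. Without replicate 3 these changes were 0.63, 1.59, 0.40 and 1.23 in the same order, with the same calls. Replicate 2 of P7 stood apart in the endothelial list. It had the fewest reads of all 12 (6399499), the lowest value of Nfia, Nfib and Nfix among the P7 libraries, the lowest sum of astrocyte markers (27608) and the highest sum of 6 endothelial markers, 9909 against 2507 and 1632. Its Ttr was also the highest at P7, at 125927 against 60055 and 47082. Without this library, the log2 fold changes from P1 to P7 were 0.71 for Nfia, 1.50 for Nfib, 0.48 for Nfic and 1.39 for Nfix, with the same calls, and 651 genes were called in place of 1191. Ttr ranged from 796 to 107436 among the P14 libraries, lowest in replicate 3. Without that library the changes from P7 to P14 were -1.29 for Nfia, -2.31 for Nfib, 0.93 for Nfic and -1.65 for Nfix, again with the same calls. Among the P28 libraries Ttr was also lowest in replicate 3, at 17368 against 102429 and 179566, as was the sum of 6 Purkinje cell markers, at 2050.1 against 4882 and 4624, and this library had the highest Nfia, 11519 against 9249 and 9725. Without it the changes from P14 to P28 were 0.85 for Nfia, 0.09 for Nfib, 0.46 for Nfic and 0.55 for Nfix, and no call changed.

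**Figure D4:**
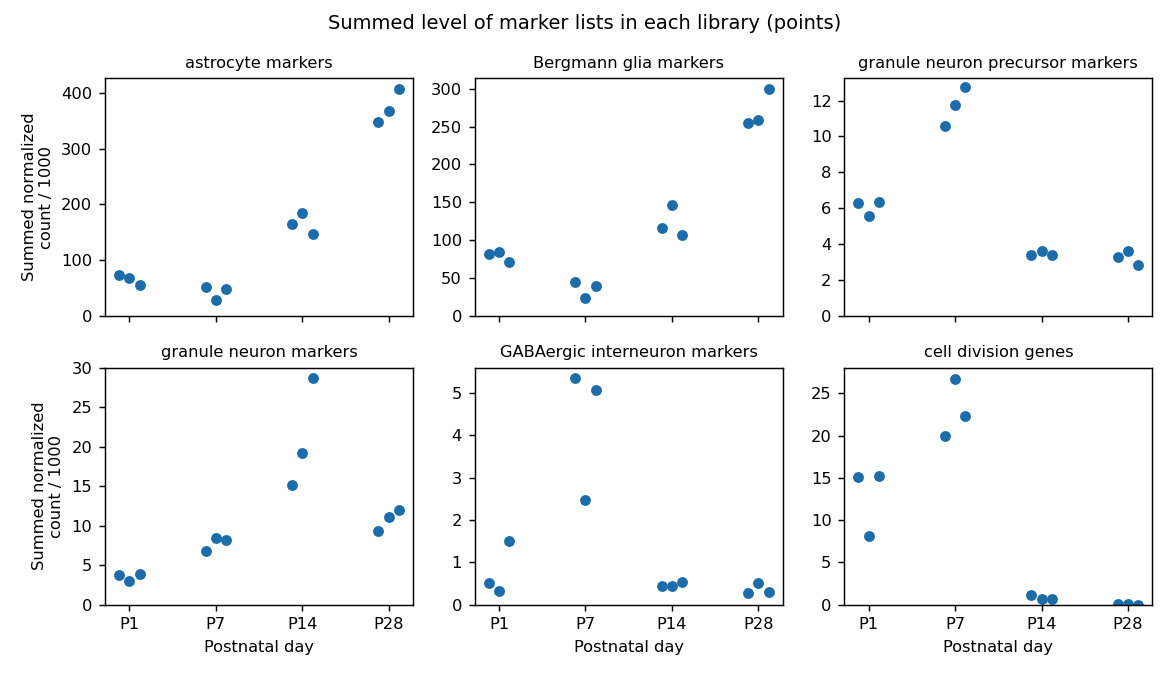
Summed normalized counts divided by 1000 of 6 lists of marker genes in each library (points) by postnatal day, each panel with its own linear axis from 0. Precursor, interneuron and cell division sums were highest in the 3 libraries of P7, whereas astrocyte and Bergmann glia sums were highest at P28.

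Genes known to be regulated through NFI factors were then described by lists, beside all genes tested. Of 10 astroglial genes, 2 rose and 5 fell from P1 to P7, 7 rose and 1 fell from P7 to P14, 8 rose and 1 fell from P14 to P28, and 7 rose and 2 fell from P1 to P28. Of all genes tested 3.47, 10.8, 5.68 and 14.6% rose and 4.24, 10.0, 8.76 and 20.0% fell in these comparisons, shares that stand beside the counts of each list here. The median log2 fold changes of the 10 genes were -1.03, 1.32, 1.02 and 2.00, beside 0.04, -0.09, -0.12 and -0.24 for all genes. Of the 10, 6 are also among the astrocyte markers. S100b, a calcium-binding protein, rose in every step, from 204 ± 62.6 (SD, n = 3) normalized counts at P1 to 536 ± 155 at P7, 4396 ± 410 at P14 and 13336 ± 1901 at P28. Aldoc, the aldolase of astrocytes, fell from 9485 ± 1459.9 to 2039 ± 805 between P1 and P7 and then rose to 20077 ± 1198 and 56146 ± 10801. Gfap, the intermediate filament gene that is the classical NFI target, had means of 665, 1444, 1354 and 2732 and rose from P1 to P7 (limma adjusted p = 0.0262) and from P14 to P28 (0.0405). Fabp7, the radial glial fatty acid binding protein, was highest at P1 with 15869 ± 762 and fell to 5855 ± 2127 at P7 and 2568 ± 735 at P14 before it rose to 5215 ± 879 at P28. Apcdd1, a Wnt inhibitor, fell from P14 to P28 (log2 fold change -1.67, limma adjusted p = 0.0174).

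Of 6 granule neuron genes, 2 rose and 1 fell from P1 to P7, 3 rose and 1 fell from P7 to P14, 1 rose and 1 fell from P14 to P28, and 3 rose and 1 fell from P1 to P28, with median log2 fold changes of 0.15, 0.73, -0.99 and 1.38, beside 0.04, -0.09, -0.12 and -0.24 for all genes (shares of all genes called were 7.70, 20.9, 14.4 and 34.6%). Gabra6, a GABA receptor subunit of mature granule neurons, was at 0 in all P1 libraries, had 37.3 ± 21.3 (SD, n = 3) normalized counts at P7, 2305 ± 931 at P14 and 894 ± 108 at P28. Against a floor of 3 reads per library at P1, its mean was at least 17.9-fold higher at P7 and at least 1104-fold higher at P14. With Gabra6 at these bounds the medians from P1 to P7 and from P1 to P28 remained 0.15 and 1.38. Gabra6 and Grin2c are also among the granule neuron markers above. Cntn2, an adhesion molecule of migrating granule neurons, rose from 180 ± 106 at P1 to 2165 ± 883 at P7 (limma adjusted p = 1.29e-04). Cdh2, N-cadherin, was the most abundant of the list and had 4541 ± 539, 3193 ± 89.7, 2379 ± 263 and 3670 ± 406 at P1, P7, P14 and P28. Grin2c, an NMDA receptor subunit, rose from 17.8 ± 9.87 at P7 to 528 ± 173 at P14 (limma adjusted p = 4.96e-04), and Ephb1, an ephrin receptor, fell from P14 to P28 (log2 fold change -2.15, limma adjusted p = 0.00552).

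Of 6 progenitor genes known as repressed through NFI factors, 1 rose and 1 fell from P1 to P7, 2 rose and 2 fell from P7 to P14, 1 rose and 1 fell from P14 to P28, and 2 rose and 3 fell from P1 to P28, with median log2 fold changes of -0.02, -0.69, -0.74 and -0.75. All genes had medians of 0.04, -0.09, -0.12 and -0.24, with 7.70, 20.9, 14.4 and 34.6% called. Those that fell over the whole interval were the Notch effectors Hes1 and Hes5 and the chromatin methyltransferase Ezh2. Hes5 had 532 ± 134 (SD, n = 3) normalized counts at P1 and 5.77 ± 7.78 at P28 (limma adjusted p = 8.55e-05). Ezh2 had 575 ± 153 at P1, 1087 ± 75.4 at P7, then 207 ± 8.54 at P14 and 172 ± 68.3 at P28, and fell from P7 to P14 (limma adjusted p = 8.28e-05). Insc, which orients the mitotic spindle, rose over the interval, from 7.86 ± 3.95 to 159 ± 102 (limma adjusted p = 6.92e-05), as did Sox9, from 4157 ± 476 to 8833 ± 2197 (0.00235). Sox9 is also among the astrocyte markers.

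Among 14 inducers and partners of the family, 1 rose and 4 fell from P1 to P7, 3 rose and 4 fell from P7 to P14, 5 rose and 2 fell from P14 to P28, and 3 rose and 6 fell from P1 to P28, with median log2 fold changes of -0.29, 0.18, -0.05 and -0.78. Beside this, 3.47, 10.8, 5.68 and 14.6% of all genes rose and 4.24, 10.0, 8.76 and 20.0% fell, with medians of 0.04, -0.09, -0.12 and -0.24. Sox9, the inducer of Nfia in glial progenitors, had 4157 ± 476 (SD, n = 3) normalized counts at P1, 1681 ± 416 at P7, 3282 ± 691 by P14 and 8833 ± 2197 at P28. It fell in the step in which Nfia rose and rose in the step in which Nfia fell, and both rose from P14 to P28. Notch1, the receptor, fell from P1 to P7, from 4789 ± 1584 to 1200 ± 59.5 (limma adjusted p = 7.44e-05), and the cytokine receptor genes Il6st and Lifr fell with it (limma adjusted p = 0.00303 and 0.00636). Lhx2, a LIM homeobox factor, had 43.7 ± 34.9 at P1 and 4.98 ± 1.26 at P7, which did not pass (log2 fold change -2.65, limma adjusted p = 0.0794), and fell to 0.938 ± 0.814 at P28 (log2 fold change from P1 -4.37, limma adjusted p = 0.00131). Zbtb20, a zinc finger factor of astrocytes, was the member that rose in this step, from 2135 ± 82.4 to 3381 ± 656 (limma adjusted p = 0.0440), and it fell and rose again at P14 and P28. Pou3f2 (Brn2), a POU domain factor, had 731 ± 189 at P7, 276 ± 18.0 at P14 and 665 ± 119 at P28, and fell in the first of these steps (limma adjusted p = 9.01e-04) and rose in the second (0.00433). Sox10, of the oligodendrocyte lineage, rose to 1289.5 ± 306 at P14 (limma adjusted p = 0.00303) and fell to 282 ± 201 at P28 (0.00243). In this list Sox9 is also an astrocyte marker and a progenitor gene above, and Olig2 and Sox10 are also oligodendrocyte lineage markers.

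**Figure D5:**
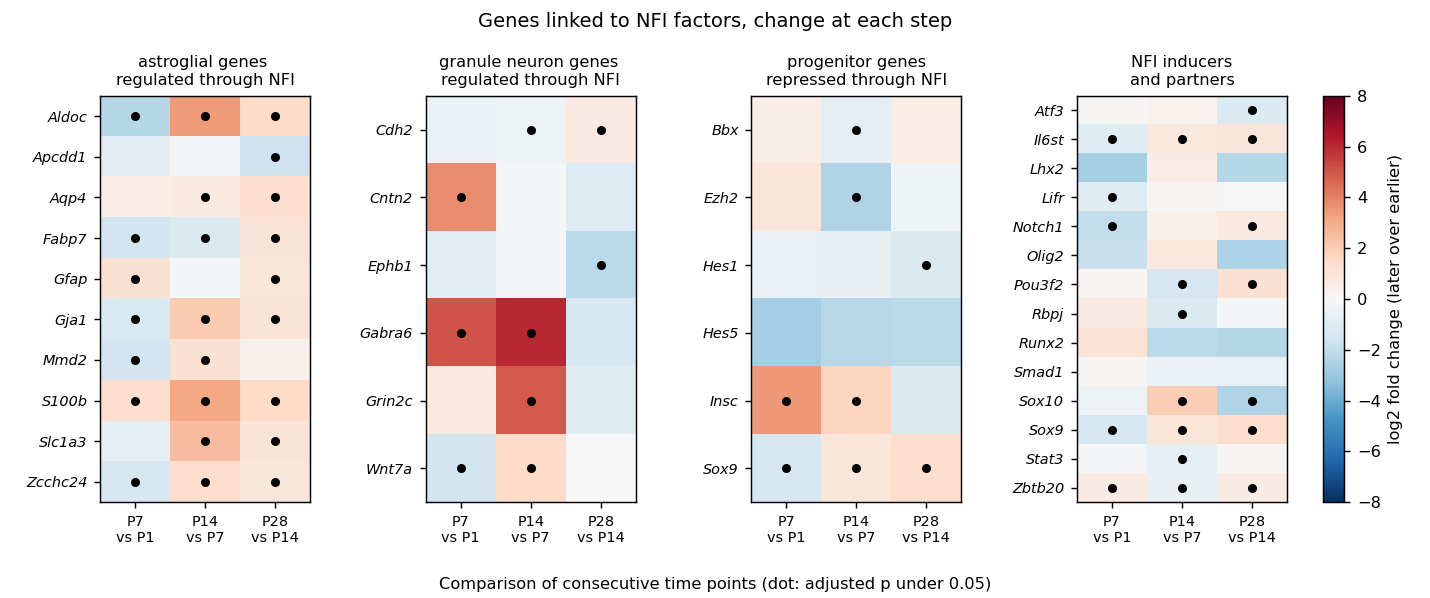
log2 fold change (colour, red higher and blue lower at the later time point) of the tested genes of 4 lists linked to NFI factors, in the 3 consecutive steps; a dot marks an adjusted p under 0.05. Of the 10 astroglial genes, 2 rose and 5 fell from P1 to P7. In the next step 7 rose and 1 fell, and from P14 to P28 8 rose and 1 fell. Of all genes tested, 3.47, 10.8 and 5.68% rose and 4.24, 10.0 and 8.76% fell in these steps.

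NFI motifs were searched in promoter windows of RefSeq (GRCm38.p6), from 250 bases before to 50 after the annotated start. The single motif TTGGC, or GCCAA on the other strand, was present in 46.7% of the 32851 windows searched, so that its presence in a given window says little. It was in 18 of 32 windows (56.2%) of the list genes above, of which 28 of 35 had a window among those searched. Of the Nfi genes, Nfia and Nfic had 1 window each, both without the motif, and Nfix had 4, of which 3 held it. Nfib was not analysed in this search. The windows of Gfap, Slc1a3, Gja1 and Grin2c did not hold the motif. Windows that hold it are shown as examples of neuronal, glial and family genes. These are the windows of Gabra6 and Fabp7 and a window of Nfix at an alternative start, with the motif on both strands. They run 5′ to 3′ on the gene's strand, and capitals mark TTGGC or GCCAA.
Gabra6 (chr11:42321023-42321322, minus strand): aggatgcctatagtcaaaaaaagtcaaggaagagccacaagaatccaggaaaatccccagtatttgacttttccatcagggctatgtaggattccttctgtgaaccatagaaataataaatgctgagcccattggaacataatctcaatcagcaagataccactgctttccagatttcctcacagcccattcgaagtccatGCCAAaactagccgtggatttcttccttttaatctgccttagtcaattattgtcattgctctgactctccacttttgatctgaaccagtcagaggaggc
Fabp7 (chr10:57784673-57784972, plus strand): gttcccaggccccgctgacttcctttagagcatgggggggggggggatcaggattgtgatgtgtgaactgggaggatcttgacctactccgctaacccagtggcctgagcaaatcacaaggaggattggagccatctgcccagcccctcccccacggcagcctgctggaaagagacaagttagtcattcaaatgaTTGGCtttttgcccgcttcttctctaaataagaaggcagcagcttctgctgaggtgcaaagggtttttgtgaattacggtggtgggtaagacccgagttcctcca
Nfix (chr8:84772826-84773125, minus strand): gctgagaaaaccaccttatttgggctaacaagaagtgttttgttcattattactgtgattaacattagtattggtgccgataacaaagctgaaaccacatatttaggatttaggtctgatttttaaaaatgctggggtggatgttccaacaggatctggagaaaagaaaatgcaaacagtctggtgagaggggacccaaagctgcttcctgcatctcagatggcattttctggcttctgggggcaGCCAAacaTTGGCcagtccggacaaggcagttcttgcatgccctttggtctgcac

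The full palindrome, TTGGC and GCCAA with 5 bases between them, contains the single motif on both strands. It was in 12 windows, 0.0365% of those searched. Of the 12 genes, 7 were in the table and 5 passed the filter on low values. The sites of the genes named below are given in capitals with the spacer in lower case.
Gstm7 (chr3:107931860-107931874, minus strand): TTGGCactcaGCCAA
Hrh1 (chr6:114397782-114397796, plus strand): TTGGCttcttGCCAA
Galt (chr4:41755481-41755495, plus strand): TTGGCgactaGCCAA

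From P7 to P14, 2 of the 5 rose and 0 fell, beside 10.8% of all genes that rose, and 0 changed from P1 to P7. Hrh1, the histamine H1 receptor, had 18.6 ± 15.4 (SD, n = 3) normalized counts at P7 and 86.7 ± 16.9 at P14 (limma adjusted p = 0.0373). Gstm7, a glutathione transferase, had 106 ± 24.5 at P7 and 340 ± 139 at P14 (limma adjusted p = 0.0200), and fell to 126 ± 42.9 at P28 (0.0494). Galt, of galactose metabolism, did not pass in that step (limma adjusted p = 0.0880). A match is a description of the window and does not show binding.

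The genes whose pattern was most like each Nfi gene were found by Pearson's r on log2(normalized count + 1) over the 12 libraries, among 10212 genes with a mean of at least 100. The 12 libraries share 4 time points, so r reflects mainly the order of 4 group means, and it is given as a description. Nearest to Nfib were Zfpm2 (r = 0.983), a cofactor of GATA factors, Phf3, Tcf4 (0.979), a basic helix-loop-helix factor, Angpt1 and Ptma. Tcf4 had 8991 ± 1690 (SD, n = 3) normalized counts at P1, 20393 ± 2583 at P7, then 7087 ± 370 at P14 and 7330 ± 363 at P28, the same P7 peak and flat end as Nfib. Nearest to Nfix were Dock11 (0.938), Kif21b, Snrpb2, Angpt1 and Celsr2, and nearest to Nfia were Rhobtb3 (0.912), Kif21b (0.909), a neuronal kinesin, Rpl23a, Crnkl1 and Rfc4. Nearest to Nfic were Fxyd1 (0.981), a regulator of the sodium pump, the matrix protein genes Abi3bp and Col9a3, Clic4 and Prex2. Fxyd1 had 111 ± 60.0 at P1, 399 ± 102 at P7, 2059 ± 596 by P14 and 8977 ± 564 at P28, and Prex2 went from 895 ± 108 to 19380 ± 1908 over the same interval. Within the family r was 0.889 between Nfia and Nfix, 0.858 between Nfib and Nfix and 0.705 between Nfia and Nfib, and it was -0.199, -0.623 and -0.268 between Nfic and Nfia, Nfib and Nfix.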

How the data were processed

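GFP+ cells were sorted from cerebellum, RNA was extracted and libraries were made with the Trio kit. Per the submitters' processing notes, the tools included FastQC 0.11.7, MultiQC 1.11, STAR 2.5.0a and DESeq2 1.30.1. The authors aligned reads to mm10 and counted them on UCSC transcripts, and the deposited signal is these counts divided by DESeq2 size factors. Dividing each value by what 1 read is worth in its library gave whole reads for 100% of values (tolerance 0.02), and these gave the depth.

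Columns were matched to libraries through the labels, with 0 left over. All 12 column names carry P28, so time points rest on the labels. Of the symbols, 27 had turned into dates. GENCODE M21 (GRCm38, the build of mm10) gave annotation for 23350 entries.

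The main test was limma 3.58.1 (R 4.3.3) with an intensity trend on log2(value + 1), over all 12 libraries and 15464 genes (3 or more libraries with a value of 10 or higher), called at an adjusted p under 0.05. It was run on simulated data with known changes placed at P7 alone, as were edgeR 4.0.16 and DESeq2 1.42.0. The simulation does not cover changes at every age. These 2 count tests were run on recovered reads as alternatives. In the 3 consecutive steps edgeR called 1090, 3046 and 1977 genes, and limma 1191, 3227 and 2232. Coding sequences were aligned with MAFFT. Genes named are the 4 Nfi genes, for each list linked to NFI the most abundant and the most changed, for each Nfi gene the 5 with the highest r, overlapping genes and Aldh1l1, and others were named after their values were seen. The members and lists were chosen with earlier results of these data known. No library matched another of its time point within sampling noise.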

Additional observations from a re-analysis of the deposited data

How the results depend on the processing

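Alternatives were edgeR and DESeq2 on recovered reads, scaling by library totals alone or by TMM, pseudocounts of 0.1 and 10, other filters on low values, only the time points compared, a replicate block, an unadjusted threshold with a log2 fold change over 0.75, and each library left out. Of all alternative values of the 16 fold changes, 359 kept their direction and side of the threshold. With library totals alone, 3 changes that were not called turned, to -0.14 for Nfib from P14 to P28, -0.15 for Nfia and -0.23 for Nfix from P1 to P28. That scaling moved the median of all genes by 0.06, -0.25, -0.23 and -0.42 in the 4 comparisons in the order of the report, and relative to the median the same 3 changes were 0.21, 0.51 and 0.43, against 0.22, 0.52 and 0.44 in the main scaling. It also moved the share of called genes that were higher to 33.0, 19.1 and 21.0% from P7 to P14, P14 to P28 and P1 to P28, against 51.9, 39.3 and 42.3%, and the filter of at least 10 in every library moved the last pair to 56.6 and 56.7%. Nfia from P1 to P7, at 0.61, missed the fold change threshold of 0.75, and ranged from 0.56 to 0.71 with each library left out. Nfix from P14 to P28 ranged from 0.55 to 0.78 with each library left out. Genes called from P1 to P7 numbered 1191, against 1812 with DESeq2, 2820 with only the time points compared, 2198 at the unadjusted threshold and 651 to 1536 with each library left out. From P14 to P28 they numbered 2232, against 766, 3725 and 1242 to 2807 in the last 3 of these settings. The exact permutation adjusted p of the ratio of Nfia to Nfix ranged from 0.0117 to 0.110 with each library left out.

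Replicate numbers were shared between groups, and no label tied a number to an animal or batch. Deviations of same-numbered libraries correlated with r from -0.029 to 0.139 (median 0.031). Those of libraries with other numbers had r from -0.105 to 0.054 (median -0.011). With correlations this low the libraries were not treated as pairs in the main test. With the replicate block, Nfix from P14 to P28 passed (log2 fold change 0.63, limma adjusted p = 0.0473), no other call on the Nfi genes changed, and 1163, 3153 and 2136 genes were called in the 3 steps. Family shares were recomputed with each library left out, with the longest transcript and with the longest annotated coding length, which stood in for the coding length of the RefSeq protein. Of these values 57 stayed within the spread between libraries and 23 moved by more. All that moved came from a change of length, with Nfib at P7 at 38.7 and 42.7%, so the shares depend on the length used. The causes of these differences were not tested.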
